A study of Mus musculus with 6 samples.

Results

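Fc receptors and the immunoreceptor tyrosine-based activation motif (ITAM) signalling genes that serve them were followed in RELM-α+ peritoneal macrophages of mice. The set was 10 genes chosen by symbol: Fcgr1, Fcgr2b, Fcgr3, Fcgr4, Fcgrt, Fcer1g, Tyrobp, Trem2, Syk and Inpp5d. All 10 were among the 15469 genes of the deposited table, and all 10 had enough counts to be tested. The rule names genes and uses no threshold on measured values, though it was set with earlier results of these data known.

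RNA was sequenced from 3 libraries labelled KO, made from RELM-α+ macrophages described as deleted for PU.1, and from 3 libraries labelled WT, made from control RELM-α+ macrophages. PU.1 is a myeloid transcription factor of the ETS family, and Spi1 is its gene. All cells of both groups came from the peritoneum of CAIA mice, were sorted by fluorescence for surface RELM-α and were then plated in macrophage culture medium. The labels give CAIA only as an abbreviation, which in mouse work commonly stands for collagen antibody-induced arthritis. They do not name a strain, an age or the way PU.1 was deleted, and nothing in them says that libraries of a group are from separate mice or cultures. The spread behind each p-value is thus that of these libraries and may be technical. The comparison of the labels asks what changed in these cells with PU.1 deletion, and here what changed among genes that handle immune complexes.

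Fc receptors bind the constant part of antibodies and let a macrophage take up and respond to immune complexes. In the mouse, the activating receptors encoded by Fcgr1, Fcgr3 and Fcgr4 carry no signalling motif of their own and depend on the γ chain encoded by Fcer1g. Fcer1g and Tyrobp (DAP12) are small membrane adaptors whose tails hold an ITAM, a pair of tyrosines that Src-family kinases phosphorylate. The phosphorylated ITAM recruits the kinase Syk, which starts the response. Fcgr2b encodes the inhibitory receptor, whose tail holds a single-tyrosine inhibitory motif (ITIM) that recruits SHIP1, the lipid phosphatase encoded by Inpp5d. Trem2 is a lipid receptor of macrophages that signals through Tyrobp, and Fcgrt encodes the neonatal Fc receptor, which returns IgG from endosomes and so protects it from breakdown.

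The motifs that tie these genes together are short, and their coding bases are shown because they separate the activating from the inhibitory arm. Capitals mark the tyrosine codons and the leucine codons placed 3 codons after them. The bases come from the GENCODE M21 transcripts of GRCm38, read 5′ to 3′ on the coding strand. The ITAM occupied codons 65 to 79 of the 86 codons of Fcer1g and codons 92 to 106 of the 114 codons of Tyrobp, and the ITIM occupied codons 317 to 322 of the 340 codons of Fcgr2b.
Fcer1g ITAM: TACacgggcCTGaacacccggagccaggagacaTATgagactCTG
Tyrobp ITAM: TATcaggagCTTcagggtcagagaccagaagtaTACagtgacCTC
Fcgr2b ITIM: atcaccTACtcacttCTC

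Of the 10 genes, 4 lie together on mouse chromosome 1 (GRCm38.p6, RefSeq). Fcgr2b (170960558 to 170976071, minus strand), Fcgr4 (171018926 to 171029761, plus strand), Fcgr3 (171051169 to 171065915, minus strand) and Fcer1g (171229572 to 171234349, minus strand) span 273.8 kilobases. Inpp5d is on the same chromosome at 87620312 to 87720510. Fcgr1 is on chromosome 3 (96282909 to 96293969), Tyrobp and Fcgrt on chromosome 7 (30413782 to 30417582 and 45092993 to 45103822), Syk on chromosome 13 (52582610 to 52648792) and Trem2 on chromosome 17 (48346401 to 48352276).

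Facts of the whole series bear on every value below. The libraries held 17280855 to 18632623 counts. Spi1 itself was at 294 ± 22.6 CPM (counts scaled by library size) in libraries labelled KO and 315.8 ± 29 CPM in libraries labelled WT (SD, n = 3 each; edgeR adjusted p = 0.561), so the amount of its transcript goes against the label of a deletion. Counts over a whole gene would not reveal the loss of a part of its transcript. The 4 Y-linked genes Ddx3y, Eif2s3y, Uty and Kdm5d had 12 counts in total in the libraries labelled KO and 7176 in those labelled WT, so the sex of the mice and the label cannot be told apart. KO replicate 1 stood apart. Its log2 CPM over all tested genes correlated at 0.902 and 0.922 with the other libraries labelled KO, which correlated at 0.99 with each other, and at 0.955 to 0.959 with the libraries labelled WT. Differences of the 10 genes, the ratios and the pathway genes are therefore given with and without KO replicate 1.

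All 9 macrophage markers examined were present, among them Lyz2, Cd68, Csf1r and Adgre1. Their summed level was 24550 CPM in KO replicate 1, 48028 and 49677 CPM in the other libraries labelled KO, and 40885 to 46241 CPM in the libraries labelled WT. The sum is mostly Lyz2, which was at 13171 CPM in KO replicate 1 and 29743 to 36709 CPM elsewhere. Not all macrophage markers were low in that library: Csf1r, which was called higher in libraries labelled KO (edgeR adjusted p = 0.0208), was at 2900 CPM in KO replicate 1, 2573 and 2609 CPM in the other libraries labelled KO and 1560 to 1567 CPM in those labelled WT, and Cd68 was at 2114 CPM in KO replicate 1 and 2125 and 2235 CPM in the others labelled KO. Genes that mark large resident peritoneal macrophages were nearly absent, with Timd4 at 0 to 1.25 CPM. Icam2 was at 3.19 to 4.11 CPM in libraries labelled KO and 1.33 to 1.74 CPM in those labelled WT. It was called higher in libraries labelled KO (edgeR adjusted p = 0.0454). Selp went the other way, at 0.0521 to 0.495 CPM in libraries labelled KO and 1.34 to 2.19 CPM in those labelled WT. It was not called (edgeR adjusted p = 0.0687). Several genes of the set are also used by other leukocytes. The summed level of the 7 B cell markers was 9.85 to 35.2 CPM in libraries labelled KO and 43.1 to 59 CPM in libraries labelled WT. Most of it was Cd22, at 6.44 to 33.7 CPM in libraries labelled KO and 41.3 to 57.4 CPM in libraries labelled WT, while Ms4a1 and Pax5 were at 0 in all libraries labelled KO and at 0.174 CPM or less in those labelled WT. Cd79b went the other way, at 1.33 to 3.25 CPM in libraries labelled KO and 1.02 to 1.28 CPM in those labelled WT. It was not called (edgeR adjusted p = 0.326). Of the T and NK cell markers, Cd3e was at 0.103 CPM or less in every library, and Cd247 was at 5.78, 0.359 and 0.417 CPM in libraries labelled KO and 5.35, 3.52 and 4.38 CPM in libraries labelled WT. Of the neutrophil markers, S100a8 was at 1.88 to 3.69 CPM in libraries labelled KO and 5.89 to 6.64 CPM in libraries labelled WT, while Mmp8 reached 166.7 CPM in KO replicate 1 and 16.6 to 34.2 CPM elsewhere. The other neutrophil markers were not above the libraries labelled WT in KO replicate 1: Ngp was at 0.66 CPM in KO replicate 1 and 1.02 to 1.68 CPM in libraries labelled WT, and Retnlg and Cxcr2 were at 0 in KO replicate 1. The 6 dendritic cell markers, none of them tested, summed to 8.92 CPM in KO replicate 1 and 0.257 to 1.56 CPM elsewhere. Most of the sum in KO replicate 1 was Cd209a, at 7.38 CPM, against 0.0513 to 0.582 CPM elsewhere. Flt3 and Ccr7 were also highest in that library, at 0.771 and 0.385 CPM. Zbtb46 and Clec9a, at 0.11 and 0.22 CPM in it, were below all libraries labelled WT. In bulk RNA, fewer cells of a type and less RNA per cell cannot be told apart.

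The adaptors were the most abundant genes of the set. In TPM, which corrects for transcript length and so allows genes to be compared, Tyrobp was at 5537 ± 726 in libraries labelled KO and 5223 ± 539 in libraries labelled WT (SD, n = 3 each). Fcer1g was at 2664 ± 138 TPM in libraries labelled KO and 2386 ± 129 TPM in libraries labelled WT. The levels of Trem2 were 1896 ± 154 TPM in libraries labelled KO and 1882 ± 140 TPM in libraries labelled WT, and those of Fcgr3 were 1235 ± 253 TPM in libraries labelled KO and 1245 ± 97.3 TPM in libraries labelled WT. These 4 genes kept the same order in both groups with no overlap between neighbours, and each stood at the 99.3 percentile or higher among the genes of the table.

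Below them, Syk was at 200 ± 5.65 TPM in libraries labelled KO and 194.8 ± 18.4 TPM in libraries labelled WT, and its values overlapped those of Fcgr2b in both groups (179.6 ± 59.5 TPM in libraries labelled KO and 182.4 ± 27.7 TPM in libraries labelled WT). The lower places differed between the labels. In libraries labelled KO, Inpp5d (134.6 ± 7.35 TPM) came before Fcgr4 (91.2 ± 37.6), Fcgr1 (89.9 ± 25.1) and Fcgrt (88.1 ± 33.1), and these last 3 overlapped one another. In libraries labelled WT, the order was Fcgr4 (141.3 ± 19.8 TPM), Inpp5d (103.8 ± 7.46), Fcgr1 (66.3 ± 3.72) and Fcgrt (47.4 ± 3.94), with no overlap between neighbours.

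None of the 10 genes was called different between the labels when all 6 libraries were compared. By edgeR's quasi-likelihood test with Benjamini-Hochberg adjustment over all 11424 genes tested, 0 of 10 had an adjusted p under 0.05, against 3.32% of all genes (2.26% higher and 1.06% lower in libraries labelled KO). At an unadjusted p under 0.05 there was 1, Inpp5d, against 22.7% of all genes. DESeq2 and limma-voom also called 0 of 10, against 10.8% and 3.11% of all genes. In the authors' deposited table the lowest q-value among the 10 was 0.216, with 8.02% of all genes under 0.05. The median log2 difference of the 10 genes was -0.09, beside -0.01 for all genes tested.

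**Figure D1:**
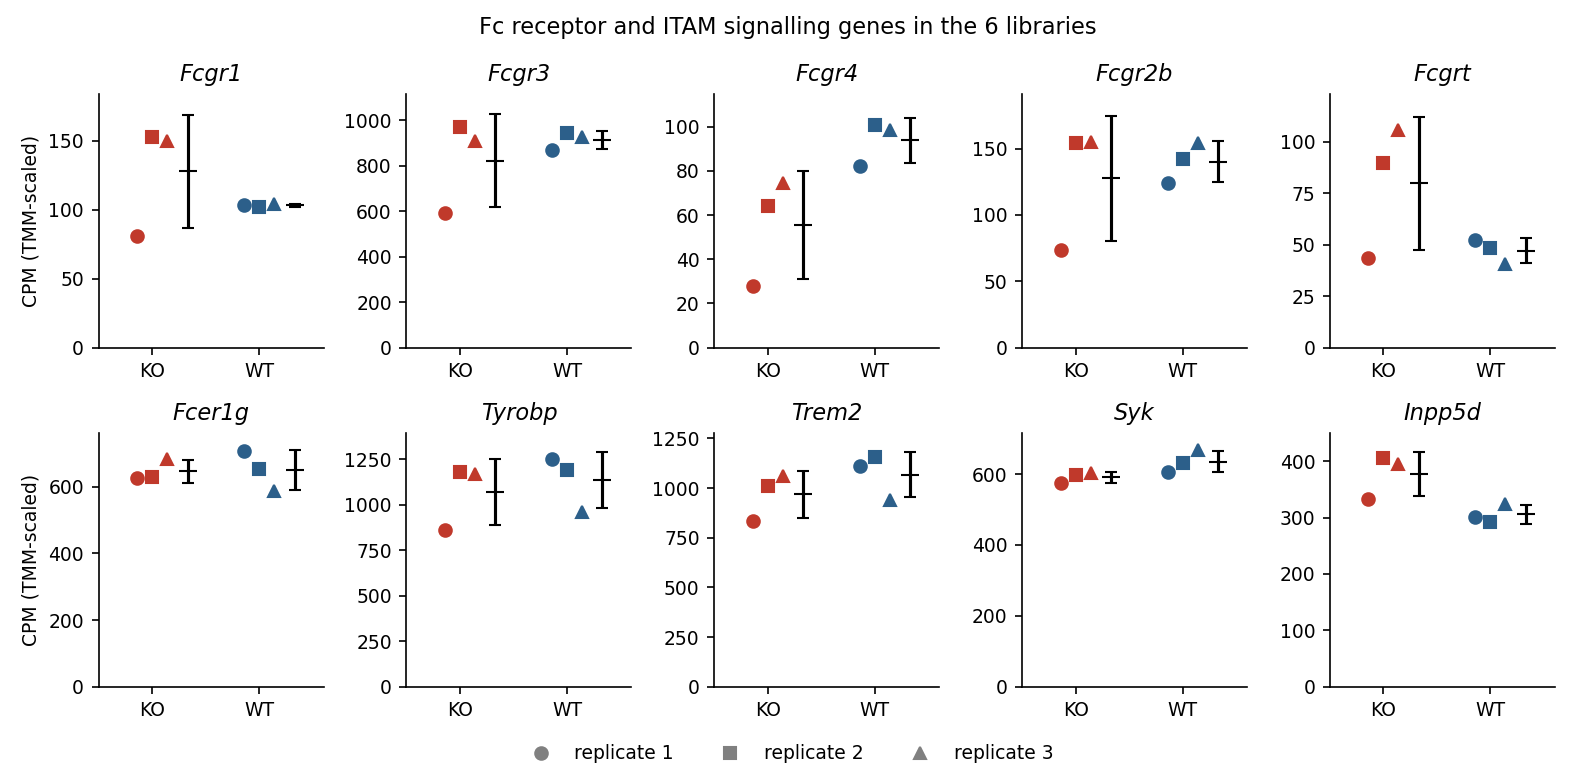
Level of each of the 10 genes in CPM (vertical axis, starting at 0) in the 3 libraries labelled KO (red, left) and the 3 labelled WT (blue, right), with marker shape giving the replicate number and the black bar the mean ± SD. KO replicate 1 is the lowest library labelled KO in each panel, and the levels of Fcgr4, Syk and Inpp5d do not overlap between the groups.

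For the genes below, values of a group are given in the order of replicates 1, 2 and 3. Fcgr1, the high-affinity receptor for monomeric IgG, had levels of 80.8, 152.3 and 149.9 CPM in the libraries labelled KO. In the libraries labelled WT its levels were 103.1, 101.8 and 104.3 CPM. KO replicate 1 was below and the other libraries labelled KO above all libraries labelled WT, whose SD was 1.25 CPM. The log2 difference over the 6 libraries was 0.31 (SE 0.249, 95% interval -0.31 to 0.92; edgeR adjusted p = 0.467). When KO replicate 1 was left out it was 0.57 (SE 0.073, 0.40 to 0.73), a 1.48-fold higher level with an adjusted p of 0.000554.

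Fcgr3, the low-affinity activating receptor and the most abundant of the IgG receptors here, was at 590.3, 969.6 and 905.8 CPM in the libraries labelled KO. It was at 867, 943.3 and 926.3 CPM in those labelled WT. Again KO replicate 1 was low and the other libraries labelled KO lay among or just above the WT values. The log2 difference was -0.15 (SE 0.194, interval -0.63 to 0.32; adjusted p = 0.641), and 0.05 (interval -0.13 to 0.24; 0.613) without KO replicate 1.

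Fcgr4, the activating receptor of monocytes and macrophages for IgG2a and IgG2b, was the only IgG receptor whose CPM did not overlap between the groups. It was at 27.8, 64 and 74.3 CPM in the libraries labelled KO and at 82.2, 100.8 and 98.6 CPM in those labelled WT. The fold was 0.59 (log2 -0.76, SE 0.362, interval -1.66 to 0.13; edgeR adjusted p = 0.274). With KO replicate 1 left out the fold was 0.745 (log2 -0.43, SE 0.119, adjusted p = 0.0182). In TPM the groups overlapped slightly, with 121.4 in KO replicate 3 and 118.7 in WT replicate 1.

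Fcgr2b, the inhibitory receptor, was at 73.3, 154 and 155.3 CPM in the libraries labelled KO and at 124, 142 and 154.4 CPM in those labelled WT. KO replicates 2 and 3 were at the level of WT replicate 3, and KO replicate 1 was below all others. The log2 difference was -0.14 (SE 0.301, interval -0.88 to 0.61; adjusted p = 0.792), and 0.16 (interval -0.08 to 0.39; 0.234) without KO replicate 1. The 6-library interval allows a fold from 0.543 to 1.52, so the data do not show that the inhibitory receptor was equal in the groups.

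Fcgr2b and Fcgr3 are close paralogs, and the reads of one can be counted for the other. Their coding bases were identical at 642 of 735 aligned positions (87.3%), while the other pairs among the 4 IgG receptors shared 64.6% to 68.1%. Of all windows of 100 bases, 44 were the same in both genes, which is 4.8% of those of Fcgr2b and 6.3% of those of Fcgr3. The longest run without a difference was 129 bases, positions 278 to 406 of the Fcgr2b frame and 263 to 391 of the Fcgr3 frame, and it is shown because a read that falls within it cannot be assigned to either gene by sequence.
Fcgr2b and Fcgr3 shared run: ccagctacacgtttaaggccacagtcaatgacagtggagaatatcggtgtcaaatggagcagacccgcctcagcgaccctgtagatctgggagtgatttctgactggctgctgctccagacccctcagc

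In the deposited counts, Fcgr2b and Fcgr3 were the only genes of the set with counts that were not whole, in the same 3 libraries, and their parts added up to a whole number each time. In KO replicate 1 Fcgr2b had 1331.01 counts and Fcgr3 10724.99, which sum to 12056. In WT replicate 1 they had 2132.99 and 14910.01 counts, which sum to 17043, and in WT replicate 2 they had 2459.1 and 16330.9, which sum to 18790. How many whole reads were placed with the wrong paralog cannot be read from these counts.

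Fcgrt, the neonatal Fc receptor, was at 43.5, 89.9 and 105.9 CPM in the libraries labelled KO and at 52.5, 48.3 and 40.7 CPM in those labelled WT. KO replicate 1 lay within the WT range, and KO replicates 2 and 3 were well above it. The fold was 1.69 over the 6 libraries (log2 0.76, SE 0.335, interval -0.07 to 1.59; edgeR adjusted p = 0.249). Without KO replicate 1 it was 2.1 (log2 1.07, SE 0.128, adjusted p = 0.000379), the largest of the 10 differences in that fit. B2m, the light chain that the neonatal receptor shares with MHC class I, was at 1589, 664.9 and 819.4 CPM in the libraries labelled KO and at 1362, 1244 and 1402 CPM in those labelled WT (log2 -0.38, adjusted p = 0.496), with KO replicate 1 the highest of all. Its log2 difference was -0.83 without that library (adjusted p = 0.000631).

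The adaptor Fcer1g had the smallest difference of the 10 genes in CPM over the 6 libraries, but not in TPM. It was at 625.6, 628.6 and 684.7 CPM in the libraries labelled KO and at 707.6, 653.6 and 588.7 CPM in those labelled WT, with full overlap. Its log2 difference was -0.01 (SE 0.101), and the 95% interval of -0.26 to 0.24 corresponds to folds from 0.838 to 1.18 (edgeR adjusted p = 0.964). Leaving out KO replicate 1 gave 0.03 (SE 0.099). In TPM it was higher on average in libraries labelled KO, at 2507 to 2771, against 2256 to 2515 in libraries labelled WT. Unlike the IgG receptors, it was not set apart in KO replicate 1, which was 0.07 below the mean of KO replicates 2 and 3 on the log2 scale.

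Tyrobp was at 862.8, 1183 and 1169 CPM in the libraries labelled KO and at 1254, 1191 and 960.4 CPM in those labelled WT. The log2 difference was -0.08 (SE 0.17, interval -0.50 to 0.33; adjusted p = 0.771), and 0.07 (SE 0.119) without KO replicate 1. Trem2, which signals through it, was at 834.6, 1010 and 1059 CPM in the libraries labelled KO and at 1111, 1155 and 939 CPM in those labelled WT. Its log2 difference was -0.14 (SE 0.135, interval -0.47 to 0.19; adjusted p = 0.528), and -0.03 (SE 0.105) without KO replicate 1. For both genes the groups overlapped, with WT replicate 3 as the lowest library labelled WT. The small difference in means was negative in CPM and positive in TPM, so neither direction can be given.

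Syk was the steadiest gene among the libraries labelled KO, at 574.1, 597.3 and 601.8 CPM, against 607.3, 630.4 and 667.9 CPM in those labelled WT. The values did not overlap, and the log2 difference was -0.10 (SE 0.08, interval -0.30 to 0.09; edgeR adjusted p = 0.45), and -0.07 (SE 0.078) without KO replicate 1. In TPM the groups did overlap and the difference in means was positive, with 195.3 to 206.3 in libraries labelled KO and 178.9 to 215 in libraries labelled WT. They also overlapped in CPM with the median-ratio scaling of DESeq2 (RLE factors).

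Inpp5d, the phosphatase that removes the lipid signal made below Syk, was higher in every library labelled KO than in any labelled WT. It was at 332.8, 405.1 and 394.2 CPM in the libraries labelled KO and at 300.4, 292.5 and 324.8 CPM in those labelled WT. The fold was 1.23 (log2 0.30, SE 0.106, interval 0.04 to 0.56; edgeR adjusted p = 0.167), and 1.32 with KO replicate 1 left out (adjusted p = 0.00397). In TPM too the groups were apart, at 126.2 to 139.8 in libraries labelled KO and 98.8 to 112.4 in libraries labelled WT. A correction for GC and length, added after the data were seen, moved the log2 difference over the 6 libraries to 0.13 for Inpp5d (edgeR adjusted p = 0.332) and to 0.09 for Fcgr1 (0.746). It moved that of Syk to -0.26 (0.0611) and that of Fcgr3 to -0.26 (0.223). For B2m it changed the sign, from -0.38 to 0.23 (0.131).

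In all, 3 of the 10 genes did not overlap between the groups in CPM, 1 above and 2 below the libraries labelled WT, against 31% of all genes tested. In TPM there were 2, Fcgrt and Inpp5d, both above, against 36.8%. Without KO replicate 1, edgeR called 4 of the 10 genes, Fcgr1, Fcgrt and Inpp5d higher and Fcgr4 lower, against 49.6% of 11677 genes (23.6% higher and 26% lower). In that comparison 69.8% of all genes did not overlap in CPM. The share of the set that was called was no larger than that of all genes in either comparison.

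**Figure D2:**
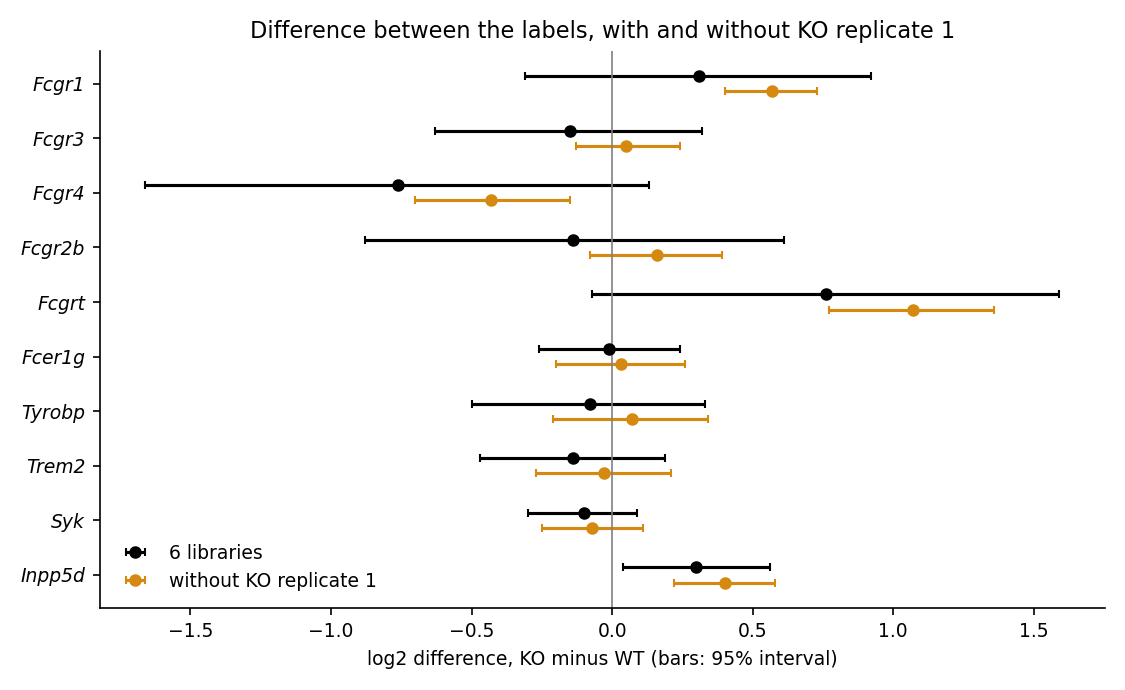
Log2 difference between libraries labelled KO and labelled WT (horizontal axis) for each gene, from all 6 libraries (black) and without KO replicate 1 (orange), with bars for the 95% interval of edgeR's fit. Without KO replicate 1 the intervals of Fcgr1, Fcgrt and Inpp5d lie above 0 and that of Fcgr4 below 0, while those of the other 6 genes include 0.

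KO replicate 1 was the lowest of the 3 libraries labelled KO for all 10 genes in CPM, against 44.5% of all genes tested, and for 8 of 10 in TPM, against 34.1%. The gap was larger for each of the 5 Fc receptors than for any of the other 5 genes. On the log2 scale KO replicate 1 lay below the mean of KO replicates 2 and 3 by values of -1.31 for Fcgr4, -1.16 for Fcgrt, -1.08 for Fcgr2b, -0.90 for Fcgr1 and -0.67 for Fcgr3. The gap was -0.45 for Tyrobp, -0.31 for Trem2, -0.26 for Inpp5d, -0.07 for Fcer1g and -0.06 for Syk, and the median over all tested genes was 0.00. In the same library Lyz2 was low and Csf1r was not, as given above. Mmp8 was above all libraries labelled WT there, and the other neutrophil markers were not. Some of these were still higher there than in KO replicates 2 and 3. S100a8 was at 3.69 against 2.21 and 1.88 CPM, S100a9 at 1.87 against 0.154 and 0.104, and Ngp at 0.66 against 0.0513 and 0.104. Retnlg and Cxcr2 were at 0 there. The dendritic cell marker Cd209a was also high there, while Zbtb46 and Clec9a were below all libraries labelled WT. The part of these in the gaps was not tested.

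Ratios taken within a library do not depend on how libraries are scaled to one another. The summed TPM of the activating receptors Fcgr1, Fcgr3 and Fcgr4 was 9.51, 7.68 and 7.25 times that of inhibitory Fcgr2b in the libraries labelled KO, and 8.53, 8.16 and 7.38 times in those labelled WT. The groups overlapped, with a log2 difference of 0.01, or -0.10 without KO replicate 1 (exact two-sided permutation test over 20 assignments, p = 1; 3 against 3 libraries cannot go below 0.1). Within the activating arm, Fcgr4 was 0.0519, 0.0728 and 0.0905 of Fcgr3 in the libraries labelled KO and 0.104, 0.118 and 0.117 in those labelled WT, while Fcgr1 was 0.0644, 0.0737 and 0.0777 of Fcgr3 in those labelled KO and 0.0559, 0.0508 and 0.0532 in those labelled WT.

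Neither of these ratios overlapped between the groups, and KO replicate 1 lay on the same side as the other libraries labelled KO. The log2 differences were -0.69 for Fcgr4 over Fcgr3 and 0.43 for Fcgr1 over Fcgr3, and with KO replicate 1 left out -0.48 and 0.51. As a share of the TPM of the 4 IgG receptors, Fcgr4 took 5.54% ± 1.3 in libraries labelled KO and 8.62% ± 0.494 in libraries labelled WT. Fcgr1 took 5.59% ± 0.324 in libraries labelled KO and 4.06% ± 0.227 in libraries labelled WT. The share of Fcgr2b was 11.1% ± 1.37 in libraries labelled KO and 11.1% ± 0.737 in libraries labelled WT, and that of Fcgr3 was 77.8% ± 2.97 in libraries labelled KO and 76.2% ± 0.945 in libraries labelled WT (SD, n = 3 each).

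The ratio of Inpp5d to Syk was 0.612, 0.716 and 0.694 in the libraries labelled KO and 0.561, 0.518 and 0.523 in those labelled WT, a log2 difference of 0.33 with no overlap, and of 0.40 with KO replicate 1 left out. The summed activating receptors over their adaptor Fcer1g were at 0.389, 0.648 and 0.566 in libraries labelled KO, against 0.525, 0.624 and 0.688 in libraries labelled WT (log2 -0.22, and -0.01 with KO replicate 1 left out). Trem2 over Tyrobp was at 0.369, 0.322 and 0.342 in libraries labelled KO, against 0.337, 0.37 and 0.378 in libraries labelled WT (log2 -0.07, and -0.12 with KO replicate 1 left out). These last pairs overlapped. Of the 6 ratios computed, 3 had the smallest p the exact permutation test allows, 0.1, which was 0.2 after Benjamini-Hochberg adjustment over the 6. All ratios but the activating to inhibitory one were chosen after their values were seen. Their p-values and lack of overlap are thus a description and no test. No share of other gene pairs without overlap is given here.

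**Figure D3:**
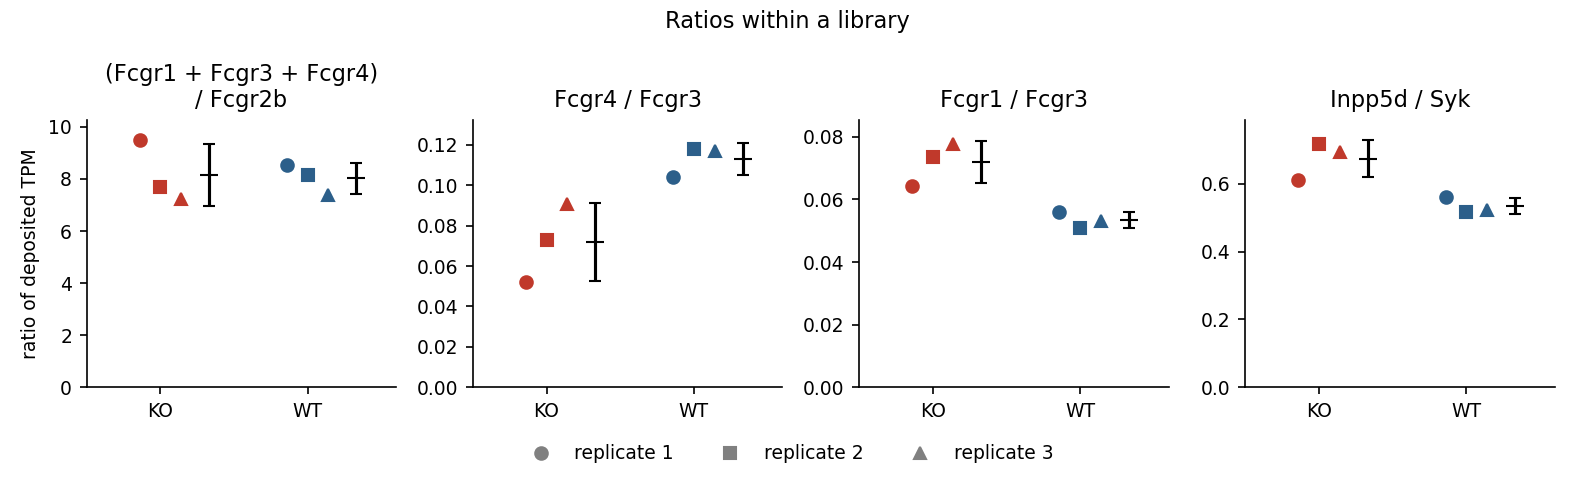
Ratios of deposited TPM within each library (vertical axis, starting at 0) for libraries labelled KO (red, left) and labelled WT (blue, right), with the mean ± SD in black. The activating to inhibitory ratio overlaps between the groups, whereas Fcgr4 over Fcgr3 is lower, and Fcgr1 over Fcgr3 and Inpp5d over Syk are higher, in every library labelled KO. All but the activating to inhibitory ratio were chosen after their values were seen.

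PU.1 binds purine-rich ETS sites, of which GAGGAAGT is a common form. A promoter of RefSeq (GRCm38.p6; 250 bases before to 50 after the start) was given for 9 of the 10 genes, all but Tyrobp. On either strand, GAGGAAGT was found in 2 of the 9, Fcgr4 and Inpp5d, and in 3.69% of 27025 genes with a promoter. The shorter GAGGAA, which GAGGAAGT contains, was in 6 of 9, adding Fcgr1, Fcgr3, Syk and Trem2, and in 31.3% of genes. The promoters of Fcgr4 and Inpp5d are shown because these genes had the motif and lay apart between the labels in CPM, Fcgr4 lower and Inpp5d higher in libraries labelled KO. Capitals mark the motif, which begins at position -24 from the start in Fcgr4, on the opposite strand, and at position -20 in Inpp5d, on the same strand.
Fcgr4, chr1:171018676-171018975, plus strand: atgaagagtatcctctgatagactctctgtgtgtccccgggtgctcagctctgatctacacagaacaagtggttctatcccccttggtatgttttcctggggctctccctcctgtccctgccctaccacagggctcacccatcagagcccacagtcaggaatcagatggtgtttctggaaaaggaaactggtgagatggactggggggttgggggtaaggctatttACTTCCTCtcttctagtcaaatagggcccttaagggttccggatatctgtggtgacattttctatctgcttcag
Inpp5d, chr1:87620062-87620361, plus strand: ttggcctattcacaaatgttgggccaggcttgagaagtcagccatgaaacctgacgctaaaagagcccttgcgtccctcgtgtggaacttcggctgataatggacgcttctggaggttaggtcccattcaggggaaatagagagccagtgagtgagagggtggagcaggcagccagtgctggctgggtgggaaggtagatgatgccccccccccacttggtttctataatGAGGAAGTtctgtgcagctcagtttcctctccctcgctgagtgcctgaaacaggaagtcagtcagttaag
A match is a description of the letters in this window and does not show a bound site.

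The rest of the pathway was read from 4 lists. Of 14 genes listed as other Fc receptors and receptor-like genes, 9 were in the table, 4 were tested and 0 were called by edgeR. Fcrls and B2m were among those tested, and B2m is in the list as the light chain of the neonatal receptor. At an unadjusted p under 0.05 there was 1, and DESeq2 called 1 higher while limma-voom called 0. The gene with the smallest p was Fcrls, a scavenger-like member of the Fc receptor-like family in the mouse. It was at 116, 39.4 and 38.5 CPM in the libraries labelled KO and 14.2, 12.7 and 11.8 CPM in those labelled WT, 5.01 times as high (log2 2.33, SE 0.491; adjusted p of edgeR 0.0664). Every library labelled KO was above every one labelled WT, with KO replicate 1 the highest, and without it the fold was 3.05.

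Of 22 tested receptors and chains that use ITAM signalling, 1 rose and 1 fell, with a median log2 difference of -0.11. Trem1, an amplifier of inflammatory responses that signals through Tyrobp, had 41, 45 and 30 counts in the libraries labelled KO and 4, 1 and 4 counts in those labelled WT. The ratio of the group totals, each divided by the summed scaled library sizes of its group, was 11.6 (95% exact counting interval 5.9 to 26; edgeR adjusted p = 0.0276), at levels of 2.31 CPM or less, and the fitted log2 difference was 3.48 with and 3.42 without KO replicate 1. Clec7a, the β-glucan receptor Dectin-1, which carries a motif of its own with a single tyrosine, fell to 193, 247.8 and 345.7 CPM in the libraries labelled KO, against 745.6, 938.4 and 1082 CPM in those labelled WT. Its fold was 0.284 (log2 -1.81, SE 0.257, adjusted p = 0.0317), and 0.325 without KO replicate 1. The correction for GC and length moved the log2 difference of Clec7a to -1 and ended its call (edgeR adjusted p = 0.197). Gp6, the platelet collagen receptor that uses Fcer1g, was at 0.44, 0.103 and 0 CPM in libraries labelled KO and 1.51, 2.54 and 2.46 CPM in libraries labelled WT (edgeR adjusted p = 0.084, and 0.000528 with KO replicate 1 left out). Gp6 is itself 1 of the 6 platelet and megakaryocyte markers, of which Itga2b, Gp1ba and Gp9 were called lower. Their sum was 16.4 to 55.1 CPM in libraries labelled KO and 61.9 to 110 CPM in libraries labelled WT. Most of the sum in libraries labelled KO was Pf4, at 44.9, 16.2 and 14.5 CPM, against 17.6, 21.8 and 17.6 CPM in libraries labelled WT. The part of the other markers in the Gp6 values was not tested.

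Of 43 tested kinases, adaptors and effectors below ITAMs, 3 rose and 0 fell, with a median log2 difference of 0.08. Plcg2, the phospholipase that Syk activates, was at 203.1, 210.2 and 189.1 CPM in the libraries labelled KO and 136.2, 127.8 and 131 CPM in those labelled WT, 1.53-fold (log2 0.61, SE 0.08, edgeR adjusted p = 0.0245). Fyn, a Src-family kinase, was at 38.3 ± 6.01 CPM in libraries labelled KO and 20.8 ± 1.38 CPM in libraries labelled WT (SD, n = 3 each), 1.84-fold (adjusted p = 0.0396). Rasgrp3, which activates Ras and Rap, was at 48.1 ± 15.2 CPM in libraries labelled KO and 18.8 ± 1.67 CPM in libraries labelled WT, 2.56-fold (adjusted p = 0.045), with KO replicate 1 the highest at 65.6 CPM; limma-voom did not call it (0.051). None of these genes overlapped between the groups. With KO replicate 1 left out the folds were 1.53 for Plcg2, 2.02 for Fyn and 2.11 for Rasgrp3.

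Of 31 tested genes listed as inhibitory receptors and phosphatases, 2 rose and 0 fell, with a median log2 difference of 0.12. Both encode sialic acid-binding receptors, and a place in the list does not show that a gene inhibits in these cells. Cd33 was at 84.9, 51.3 and 52.1 CPM in the libraries labelled KO and 20.4, 18.3 and 21.3 CPM in those labelled WT, 3.14-fold (log2 1.65, SE 0.226, edgeR adjusted p = 0.0291). Siglece, whose tail holds an ITIM, was at 3.63, 5.65 and 5.06 CPM in libraries labelled KO and 1.34, 0.693 and 1.08 CPM in libraries labelled WT, 4.59-fold (log2 2.20, SE 0.33, adjusted p = 0.0334). Leaving out KO replicate 1 gave folds of 2.61 for Cd33 and 5.19 for Siglece.

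The median over all tested genes was -0.01, and the share called was 3.32%. The 7 genes called in these lists were also called without KO replicate 1, where 49.6% of all genes were. None of the 7 was called when KO replicate 2, KO replicate 3 or WT replicate 1, 2 or 3 was left out, with adjusted p from 0.0705 to 0.247 in those fits. With KO replicate 1 left out the counts were 5 higher and 9 lower of 23 receptors and chains, and 16 higher and 9 lower of 43 kinases and adaptors. They were 15 higher and 8 lower of 31 genes listed as inhibitory. In the list of other Fc receptors they were 1 higher and 2 lower of 4, with the light chain B2m among the lower. The median log2 differences were then -0.15, 0.12, 0.26 and -0.20 in that order of lists, beside 0.02 for all genes.

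**Figure D4:**
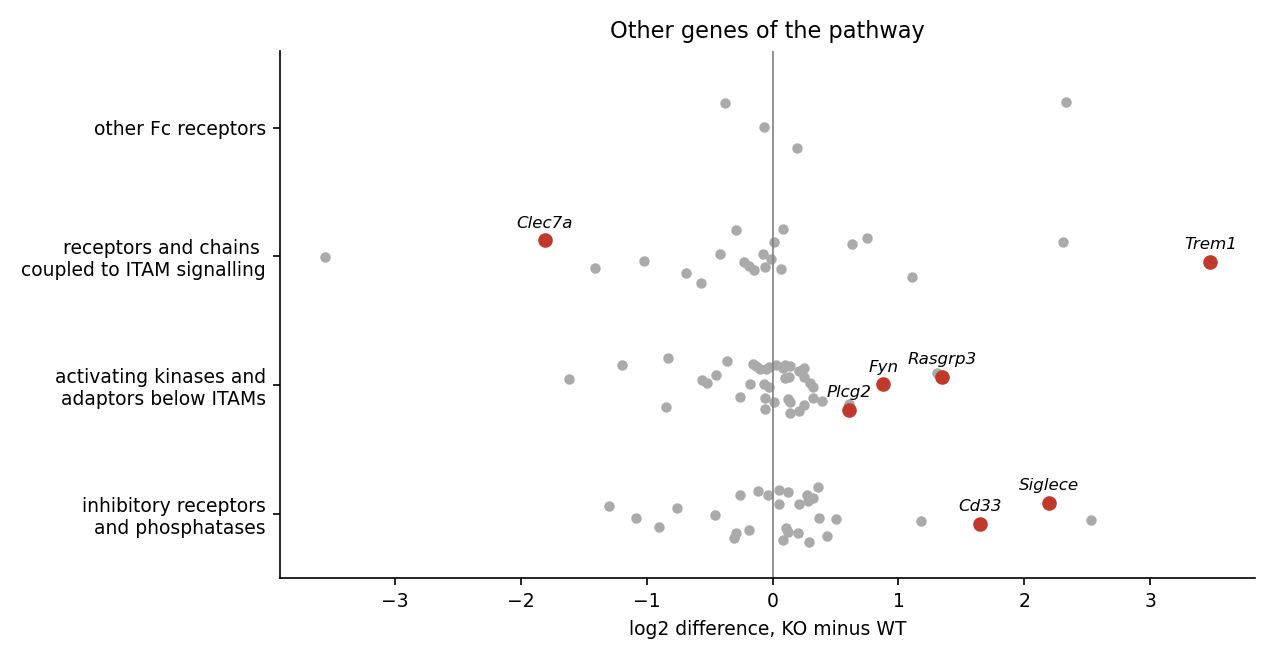
Log2 difference between libraries labelled KO and labelled WT (horizontal axis) of every tested gene of the 4 pathway lists, 1 point a gene, with genes called by edgeR at an adjusted p under 0.05 in red and named. The 7 called genes are Trem1, Plcg2, Fyn, Rasgrp3, Cd33 and Siglece on the higher side and Clec7a on the lower side.

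Among 8270 other genes averaging 10 CPM or more, the 5 whose log2 CPM followed that of Fcer1g most closely over the 6 libraries were Slc25a1, Usp21, Dohh, Ost4 and Sf3b4, with Pearson's r of 0.967, 0.963, 0.962, 0.959 and 0.956. The values share the scaling of the libraries, and Fcer1g ranged only from 588.7 to 707.6 CPM over them.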

How the data were processed

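The mRNA was captured on beads, heat-fragmented, copied into cDNA, PCR-amplified and read on a NovaSeq machine, per the labels' protocols. The submitters' processing notes name fastp 0.18.0 and the build GRCm39. The aligner, counter, strand setting and annotation are not stated in the sources used here. Gene starts of the table are mostly those of GRCm38: of 15426 genes matched by ID, 13131 had the start of RefSeq's GRCm38.p6, whose positions are printed.

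The authors deposited an estimated count per gene in each library, with no normalization. Of these values 4.82% to 5.49% per library were not whole, and all were rounded. Also deposited were TPM values, used here for levels between genes and for ratios, and FPKM values, not used. The log2 fold changes, p-values and q-values of the authors' deposited table are named for DESeq2 in the file headers. The header calls the fold WT against KO, but its sign was that of KO minus WT in 611 of 611 genes whose mean TPM differed by over 1 in log2(TPM + 1).

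After filterByExpr (minimum count of 10) 11424 genes remained. They were scaled with TMM factors and tested by edgeR 4.0.16 (quasi-likelihood F test, robust) in R 4.3.3, with no covariate. Log2 CPM had a prior count of 2. The counting interval covers counting error only, since PCR reads carry no molecular identifiers. The fit was tested on simulated data. Alternatives were RLE factors, DESeq2 1.42.0, limma 3.58.1 (voom), no filter, the replicate number as a block, and each library left out. A correction for GC and length (mgcv 1.9.3, on the 98% of tested genes with a GENCODE M21 transcript) was added after seeing the data.

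The members, lists and tests were chosen with earlier results of these data known. Named were the 10 members and Spi1; from each list up to 3 called genes of largest log2 difference averaging 1 CPM or more, or the smallest p where none was called; and the 5 tested genes averaging 10 CPM or more that correlated best with Fcer1g. The ratios other than activating to inhibitory, Gp6, B2m and the markers given with values were chosen after their values were seen.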

Additional observations from a re-analysis of the deposited data

How the results depend on the processing

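Of 120 log2 differences of the 10 genes under alternatives, 111 kept their direction and their side of the threshold. When KO replicate 1 was left out, Fcgr1, Fcgr4, Fcgrt and Inpp5d passed it, and 4 differences changed sign without passing it. With 1 library left out at a time, Fcgr2b ranged from -0.337 to 0.157, Fcgr3 from -0.306 to 0.054, Fcer1g from -0.088 to 0.032 (0.029 without KO replicate 1) and Tyrobp from -0.197 to 0.065. The 10 genes gave 0 calls under the alternatives that kept all 6 libraries, and 0 to 4 with 1 library left out. The activating to inhibitory ratio (log2 0.014) was -0.012 with Fcgr1 left out of the sum, and ranged from -0.103 to 0.094 with 1 library left out. Over all genes 379 were called, 1344 by DESeq2, 702 with the correction for GC and length (53.3% of them higher in libraries labelled KO, against 68.1% without it), and 5 to 5793 with 1 library left out. In the pathway lists the counts by edgeR, by DESeq2 and with 1 library left out were 0, 1 and 0 to 3 for other Fc receptors, 2, 5 and 0 to 14 for receptors and chains, 3, 6 and 0 to 25 for kinases and adaptors, and 2, 7 and 0 to 23 for inhibitory genes, the last being 4 with the correction for GC and length. The cause of these changes was not tested. With a replicate block 0 genes were called (1976 at an unadjusted p under 0.05), and 0 in each list. The deviations of same-numbered libraries correlated at -0.162, 0.246 and -0.271. With 3 libraries in a group, these correlations cannot decide whether same-numbered samples were paired, and the labels give only a shared number.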
